A study of Rattus norvegicus with 12 samples.

Results

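The miR-199a and miR-214 microRNAs were followed in acinar cells of the developing rat parotid gland, the serous salivary gland that makes amylase. They were measured by 3 of the 375 microRNA assays of a qRT-PCR panel: miR-199a-3p and miR-199a-5p, which are the arms of the same hairpin, and miR-214. The assays were picked by name, as every assay for miR-199a, miR-199b or miR-214. There were 2 assays for miR-199a, 1 for miR-214 and 0 for miR-199b. These counts go by assay name, and whether the miR-199a assays also read strands from other miR-199 genes was not tested. All 3 carried mouse names, and no second well for the same sequence was at hand. The group was put forward after a large fall of miR-214 between the youngest and the oldest age had been seen in these same data. The levels across ages are therefore a description, and no p-value is given for them.

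All 12 samples came from untreated albino Sprague Dawley rats, 3 at each of embryonic day 20 (E20) and postnatal days 5, 15 and 25 (P5, P15 and P25). The question put by the design was how microRNAs change while these cells mature into secretory cells. Cells were captured by laser from stained sections, on the basis of their structure and of nearby vessels. The authors had checked this choice in earlier samples with an antibody against parotid secretory protein. They inspected the captured cells and report using only captures that held the wanted cells alone. The samples of an age came from separate litters. Captures of a sample made on the same day were pooled, and the number of animals behind a sample is not given in the sources used here.

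The miR-199 and miR-214 genes are known from mesenchyme, the loose connective tissue that surrounds growing epithelium. The miR-199a-2 and miR-214 hairpins are cut from a shared non-coding transcript, made from the strand opposite to dynamin 3 (Dnm3), and the mesenchymal transcription factor Twist1 is known to drive it. A hairpin can give a 5p and a 3p mature strand, and a mature microRNA finds its mRNA targets mainly through its seed, bases 2 to 8. Known targets of miR-214 include Xbp1, a transcription factor of secretory cells, and those of the miR-199a strands include caveolin 1 and mTOR.

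The mature rat sequences are shown because the 3 assays read different strands with different seeds. They are taken from RefSeq (GRCr8), 5′ to 3′, with the seed in capitals. All 3 matched an entry. The panel's miR-214 label gives no arm and was matched to the 3p strand.
miR-214: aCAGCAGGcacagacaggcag
miR-199a-3p: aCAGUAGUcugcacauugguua
miR-199a-5p: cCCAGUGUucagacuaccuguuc
The miR-214 strand lies at chr13:77121713-77121733 and the miR-199a strands at chr13:77116294-77116315 (3p) and chr13:77116255-77116277 (5p), all on the plus strand. The hairpin genes Mir199a2 and Mir214 are 5310 bases apart, both inside the Dnm3 gene, and Mir3120 is the other microRNA gene in that interval. None of the other mature strands among the 724 in this rat table has any of these 3 seeds (0 for each). These counts hold for the strands in this table only, and miR-199b was not matched there.

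The deposited value is the CT, the PCR cycle at which a well crosses the threshold, so 1 cycle earlier means close to 2 times the template. Of all 4500 microRNA wells, 32.8% gave no CT, but all 36 wells of these 3 assays did. Levels are given here as the median CT of the detected microRNAs on an array minus the CT of the assay. This is a log2 scale that goes up with the amount of microRNA. The number of assays with a CT was 282 to 306 at E20, 224 to 307 at P5, 179 to 273 at P15 and 202 to 223 at P25, and the array median CT ran from 31.3 to 34.8 cycles. P15 replicate 1 had the fewest detected assays (179) and the highest array median, so results that rest on it are given with and without it. Replicate 1 also had the fewest detected assays of its age at P5 (224) and P25 (202), so replicate number and depth are not separated after birth. Each RNA sample is a mixture, in which fewer cells of a type and less RNA per cell cannot be told apart.

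miR-214 had its highest levels before birth and its lowest at P25. At E20 its CT was 28.7, 28.5 and 29.4 cycles in replicates 1, 2 and 3, which gave levels of 3.18, 3.69 and 2.88. At P5 the levels were 2.30, 3.05 and 2.31, and at P15 they were -0.0032, 1.90 and 1.59. At P25 the CT was 37.6, 34.5 and 33.3 cycles and the levels were -3.39, -0.79 and 0.35. Every P25 level lay below every level at E20 and P5, while the P15 and P25 ranges met through P15 replicate 1. The means, each with the SD of 3 samples, were 3.25 ± 0.41 before birth, then 2.55 ± 0.43, 1.16 ± 1.02 and -1.28 ± 1.92 at P5, P15 and P25. The order of the means followed age. E20 and P5 overlapped, as did P15 and P25, and P5 and P15 did not. The P25 replicate 1 well, above 37 cycles, set much of the spread at that age; without it the P25 mean was -0.22.

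miR-199a-3p was the most even of the 3 at the outer ages. Its levels at E20 were 3.76, 4.06 and 3.77, and at P25 they were 1.36, 2.06 and 1.94, so the P25 samples lay below every E20 sample with little spread. Between these ages the samples scattered. The levels were 2.45, 4.64 and 2.23 at P5 and -1.83, 3.10 and 1.92 at P15. P5 replicate 2 was above every E20 sample, and P15 replicate 1 was below every P25 sample. The means and SDs of 3 samples were 3.86 ± 0.17, 3.11 ± 1.33, 1.06 ± 2.57 and 1.79 ± 0.38 at E20, P5, P15 and P25. P15 was lowest by its mean, but its samples overlapped those of P25, and without P15 replicate 1 the P15 mean was 2.51 and P25 was lowest.

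miR-199a-5p, the other strand of that hairpin, had levels of 3.01, 4.16 and 2.83 at E20 and 1.18, 0.73 and -0.047 at P25. At P5 the levels were 2.29, 4.32 and 1.38, and at P15 they were -3.44, 2.15 and 0.61. The same samples stood out as for the 3p strand: P5 replicate 2 was the highest of all 12 and P15 replicate 1, with a CT of 38.2 cycles, the lowest. The means and SDs of 3 samples were 3.33 ± 0.72, 2.66 ± 1.51, -0.23 ± 2.89 and 0.62 ± 0.62 at E20, P5, P15 and P25. E20 overlapped P5, and P15 overlapped P25; without P15 replicate 1 the P15 mean was 1.38, above that of P25.

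**Figure D1:**
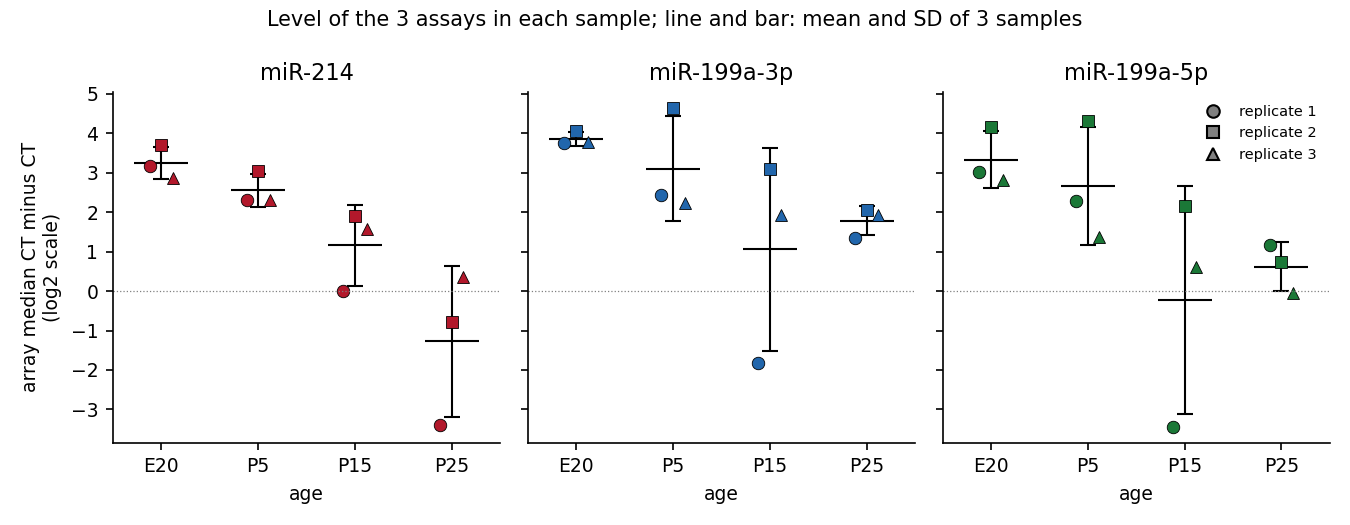
Level of miR-214, miR-199a-3p and miR-199a-5p (array median CT minus CT, log2 scale) against age, with a point for each of the 12 samples, shaped by replicate number, and a line and bar for the mean and SD of 3 samples. In all 3 panels the P25 samples sit below the E20 samples, and P15 replicate 1 is far below the other P15 samples in both miR-199a panels.

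The size of these differences was taken from a limma fit of the 192 microRNAs that had a CT in 2 or 3 samples of each age. From E20 to P25 miR-214 fell by 4.53 on the log2 scale (standard error 0.91), which is 23.1-fold lower at P25, and this was the 4th largest fall of the 192. The change was -2.71 for miR-199a-5p (standard error 1.17, 6.55-fold lower, rank 26) and -2.08 for miR-199a-3p (standard error 1.06, 4.22-fold lower, rank 36). Over all 192 microRNAs the median change was 0.15, and over these 3 it was -2.71. At an adjusted p-value under 0.05 the fit called 1 of the 3, miR-214, beside 12.0% of all tested microRNAs in either direction and 7.81% lower at P25. All 3 were lower in every P25 sample than in every E20 sample, as were 17.3% of the 156 microRNAs measured in all 6 samples. The rule rests on this contrast, so nothing is read from these counts. Without P25 replicate 1 the miR-214 change was -3.47, and miR-199a-5p was called as well without P15 replicate 1 or with a CT above 37 taken as not detected.

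Among the other pairs of ages, the fit called miR-214 between P5 and P25, where its change was -3.83 (standard error 0.91) and 3.12% of all microRNAs were called. The changes of miR-199a-3p and miR-199a-5p there were -1.32 and -2.04. From E20 to P5 each of the 3 changes was smaller than its standard error, at -0.70 for miR-214, -0.75 for miR-199a-3p and -0.67 for miR-199a-5p. From E20 to P15 they were -2.09, -2.80 and -3.56 in the same order. P15 replicate 1 weighed on all of these, and without it the P15 means were 1.74 for miR-214, 2.51 for miR-199a-3p and 1.38 for miR-199a-5p. From P15 to P25 miR-214 changed by -2.44, against 0.72 and 0.85 for miR-199a-3p and miR-199a-5p. The direction of the miR-199a changes rests on P15 replicate 1: without it the 3 changes were -3.02, -0.72 and -0.76, all below 0. Across all 4 ages the F test called miR-214 alone of the 3, beside 7.81% of all microRNAs. These comparisons share samples and are set side by side only. The P5 to P25 comparison and the F test use the P25 samples in which the fall of miR-214 was already known. Nothing is therefore read from their calls on the 3 assays.

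**Figure D2:**
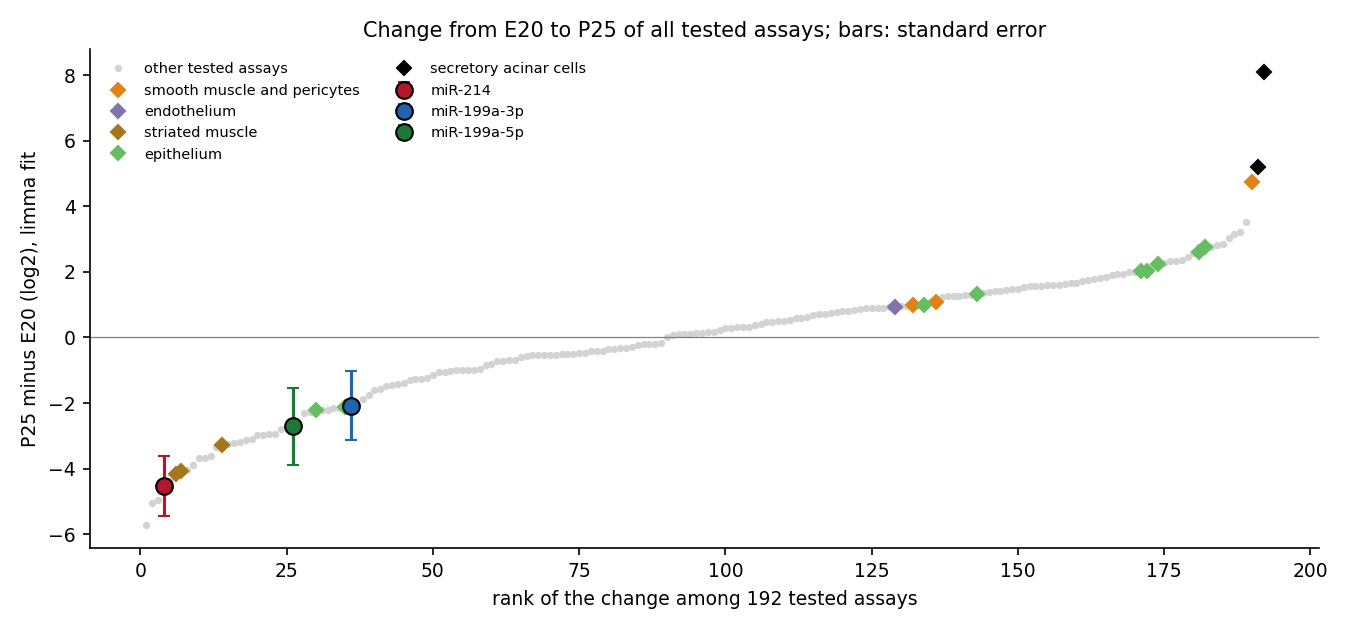
Change from E20 to P25 (log2, limma) of the 192 tested assays, ordered by size, with the standard error for miR-214, miR-199a-3p and miR-199a-5p and coloured points for assays associated with other cell types. miR-214 is at rank 4 at -4.53, the striated muscle assays miR-133a and miR-133b are close by at -4.15 and -4.07, the miR-199a strands are at ranks 26 and 36, and the smooth muscle, endothelial, miR-200 family and secretory cell assays are above 0 on this scale, which is relative to the array median.

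Differences between assays on the same array do not depend on the array reference. The efficiency of each primer pair is unknown, so such a difference is not a ratio of molecules. Its change between samples can be compared only as far as the efficiencies of the 2 assays are alike, which was not tested. The strand difference of the miR-199a hairpin, the 3p level minus the 5p level, was 0.74, -0.094 and 0.94 at E20, 0.15, 0.32 and 0.86 at P5, 1.61, 0.94 and 1.31 at P15 and 0.18, 1.33 and 1.99 at P25. The means and SDs of 3 samples were 0.53 ± 0.55, 0.44 ± 0.37, 1.29 ± 0.34 and 1.17 ± 0.92. Every P15 value lay above every P5 value, E20 and P15 only met, at 0.94, and the other pairs of ages overlapped. A test over all 4 ages did not pass (exact permutation test on the F statistic, p = 0.261, all 369600 labelings of 12 samples), which does not show that the ages are alike. From E20 to P25 the strand difference moved by 0.64 (exact two-sided permutation p = 0.40, 3 samples against 3, where the smallest possible is 0.1). Without P25 replicate 1 the p-value over the 4 ages was 0.0473 in the same exact permutation test. With each other sample left out in turn, that test gave p-values from 0.244 to 0.417. miR-199a was the only member with both strands on the panel, so this was the only strand difference tested.

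miR-214 moved away from miR-199a-3p at P25. The level of miR-199a-3p minus that of miR-214 was 0.57, 0.37 and 0.89 at E20, and 4.75, 2.85 and 1.59 at P25, with no overlap. At P5 it was 0.15, 1.60 and -0.080, and at P15 it was -1.82, 1.19 and 0.34. The mean moved by 2.45 from E20 to P25, and by 1.61 without P25 replicate 1. For miR-199a-5p the same difference was -0.17, 0.46 and -0.050 at E20 and 4.57, 1.52 and -0.40 at P25, and those ages overlapped. Its mean moved by 1.82, and by 0.48 without P25 replicate 1, so most of that shift rests on this sample. These are descriptions, since miR-214 was known for its fall.

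**Figure D3:**
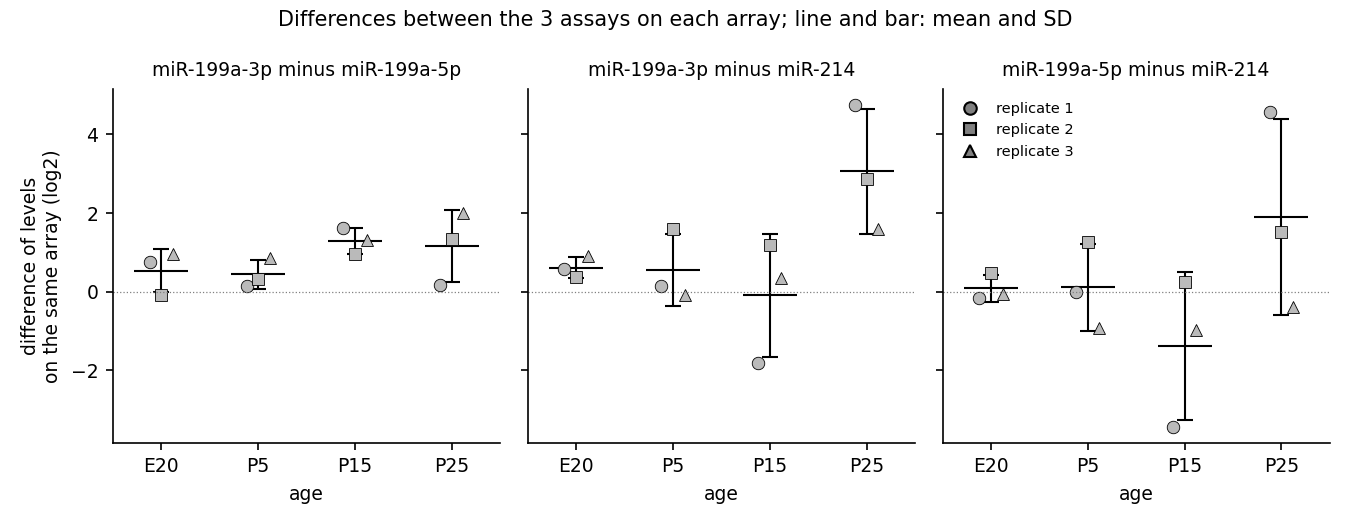
Difference of levels (log2) between 2 assays on the same array against age, with a point for each sample and a line and bar for the mean and SD of 3 samples. The strands of miR-199a stay within about 2 of each other in every sample, while miR-199a-3p exceeds miR-214 by 1.59 to 4.75 at P25.

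Whether the 3 assays also moved together among samples of the same age was described by the Pearson correlation of the deviations from the age means, over 12 samples. It was 0.94 for the strands of miR-199a, 0.59 for miR-199a-3p with miR-214 and 0.36 for miR-199a-5p with miR-214. Over all 7140 pairs of the 120 assays with a CT in every sample the median was 0.19, and 99.2%, 74.8% and 59.6% of those pairs lay below the 3 values. In 10 of the 12 samples the 3 assays deviated to the same side. Over all 280840 triples of the 120 assays the median was 4 samples, and 1.65% of triples reached 10 or more, but 2 of these 3 assays read strands of the same hairpin. The exceptions were P25 replicate 1, with deviations of -2.11 for miR-214, -0.43 for miR-199a-3p and 0.56 for miR-199a-5p, and P25 replicate 3, with 1.63, 0.15 and -0.67. Without P15 replicate 1 the correlations were 0.81, 0.45 and -0.022, so the link between miR-199a-5p and miR-214 rests on that array, and without P25 replicate 1 the last of them was 0.82.

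Deviations of this kind moved with the array as a whole. The correlation of the deviations with those of the array median CT, again over 12 samples, was -0.52 for miR-214, -0.82 for miR-199a-3p and -0.71 for miR-199a-5p, against a median of -0.47 over the 120 assays. Arrays with a later median CT thus had lower levels of the miR-199a strands even after the median was taken off. The part of this in the shared deviations was not tested. Between ages, the array median CT was 31.9 to 32.3 cycles at E20 and 33.7 to 34.2 at P25, without overlap. Age and depth therefore cannot be told apart in the E20 to P25 changes of these assays. With the median of the 120 assays as the reference, the correlations between assays were 0.91, 0.36 and 0.055, with a median of 0.0043 over all pairs.

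**Figure D4:**
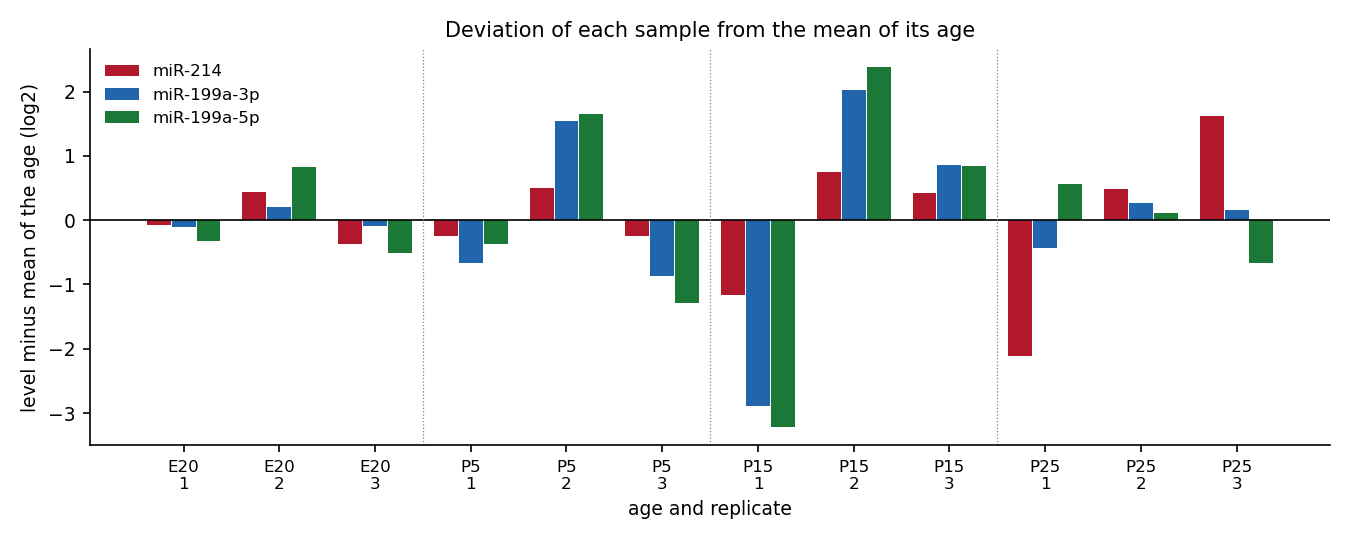
Level minus the mean of the age (log2) for each of the 12 samples, with bars for miR-214, miR-199a-3p and miR-199a-5p. The 3 bars point the same way in 10 of 12 samples, with P25 replicates 1 and 3 as the exceptions, and P15 replicate 1 holds the deepest bars for both, at -2.89 and -3.22.

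The assays most like the mean level of the 3, over 12 samples and among 117 other assays with a CT in all of them, were miR-127 (Pearson r = 0.95), miR-106b (0.89), miR-107 (0.84), miR-205 (0.81) and miR-324-5p (0.74), where the median over the 117 was 0.12. miR-127, from the imprinted Dlk1-Dio3 region, had mean levels of 5.61, 4.81, 2.55 and 1.94 at E20, P5, P15 and P25 and changed by -3.66 from E20 to P25. miR-106b, a member of a cluster tied to proliferation, changed by -3.12, and miR-205, a microRNA of basal epithelial cells, by -2.23. Within ages the closest 5 were miR-181c (r = 0.92), the rat assay of miR-143 (0.90), miR-127 (0.89), miR-182 (0.87) and miR-99a (0.86), against a median of 0.54. miR-127 was the only assay in both sets. The within-age set held miR-143, a microRNA of smooth muscle and fibroblasts, whose correlation over the 12 samples was 0.27. All of these correlations share arrays, and so depth, with the 3 assays.

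The labelled cell type was compared with markers of acinar and other cells. The marker lists were chosen with earlier results of these data known, so the adjusted p-values of their assays are descriptions. With the small nuclear RNAs as reference, limma called 0 of the 192 microRNAs between E20 and P25. The assays of secretory acinar cells, miR-148a and miR-375, rose by 5.20 and 8.09 from E20 to P25 (limma adjusted p = 0.000703 and 0.00106). miR-375 had a CT in 2 of 3 samples at E20, the other well being imputed. With 1 E20 sample left out its change ran from 6.33 to 9.87. All 9 assays of epithelial microRNAs had a CT in all 12 samples. Their median change was 2.02 and 0 of the 9 passed; miR-203 and miR-205 were at -2.13 and -2.23, and the assays of the miR-200 family had changes up to 2.75.

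Other microRNAs of connective tissue and vessels were also on the panel. The smooth muscle and pericyte assays, for miR-143 (mouse and rat) and miR-145, changed by 0.99, 1.09 and 4.74, and of the 3 only miR-145 passed (limma adjusted p = 0.0388). Its levels at E20 were -2.97, 4.34 and 4.04, and without E20 replicate 1 its change was 2.35 (adjusted p = 0.113). Its adjusted p was above 0.05 as well without each of P5 replicate 3, P15 replicate 3 and P25 replicates 1, 2 and 3, where it ran up to 0.115. The endothelial miR-126-3p changed by 0.93 (adjusted p = 0.474). These are changes relative to the array median: in CT as deposited the median over all 192 was -1.58, and the miR-143 and miR-126-3p changes are then below 0, while those of miR-199a and miR-214 stay below 0 under every reference tried. Among other mesenchymal microRNAs, miR-140, known from cartilage, changed by -2.32 (adjusted p = 0.139), and miR-335-5p, from the Mest gene, was not tested because 1 of 3 P25 samples had a CT. The summed level of smooth muscle and pericyte assays, taken as log2 of their added linear levels, lay between 4.77 and 5.11 at E20 and between 6.43 and 7.35 at P25. That of the other mesenchymal assays, miR-140 and miR-335-5p, went the other way, from between 2.37 and 3.06 at E20 to between -1.52 and -1.15 at P25. At P25, however, miR-140 had a CT in 2 of 3 samples and miR-335-5p in 1 of 3. Wells without a CT add nothing to a sum, so that P25 range does not stand for 3 samples with both assays. The summed level of the 3 miR-199a and miR-214 assays lay between 4.81 and 5.57 at E20 and between 2.30 and 2.68 at P25.

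Muscle microRNAs moved in the same direction as miR-214. Of the 5 striated muscle assays 3 were tested, and miR-1 and miR-133b fell by 3.28 and 4.07 (limma adjusted p = 0.0331 and 0.0376), while miR-133a was at -4.15 (adjusted p = 0.10). With 1 sample left out the adjusted p ran from 0.0184 to 0.118 for miR-1 and from 0.0070 to 0.118 for miR-133b. The miR-1 call was lost without E20 replicates 1 or 2 or any P25 sample, and the miR-133b call without P5 replicate 3 or any E20 or P25 sample. The summed level of the 5 assays was 4.36 to 6.23 at E20 and 0.17 to 1.88 at P25, where wells without a CT add nothing. miR-206, which is particular to skeletal muscle, and the rat assay of miR-1 each had a CT in 3 of 3 samples at E20 and in 0 of 3 at P25. For miR-133a it was 2 of 3 at P25, so the P25 sum covers fewer assays. The leukocyte list had 4 of 6 assays tested and 0 called in either direction (changes from -0.61 to 1.78), the nerve list 2 of 3 tested and 0 called (-2.72 and -0.32), and 0 of the 3 erythrocyte assays passed the filter. In the same fit 62 of the 192 microRNAs had an unadjusted p-value under 0.05. The part of RNA from neighbouring muscle, nerve or connective tissue in the levels of miR-199a and miR-214 was not tested.

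Set against miR-143, miR-126-3p or miR-200c on the same array, all 3 were lower in every P25 sample than in every E20 sample. With the mean and SD of 3 samples, the level of miR-214 minus that of the mouse miR-143 assay was 0.60 ± 0.68 at E20, -1.97 ± 0.42 at P5, -2.68 ± 0.53 at P15 and -4.92 ± 1.85 at P25. For miR-199a-3p it was 1.21 ± 0.74, -1.41 ± 0.54, -2.78 ± 1.62 and -1.85 ± 0.39 at the same ages. For miR-199a-5p it went from 0.68 ± 0.96 at E20 through -1.86 ± 0.69 at P5 and -4.07 ± 1.90 at P15 to -3.02 ± 0.73 at P25. Against miR-143 every P5 sample was below every E20 sample for all 3, as in 10.4% of all ordered pairs of assays, while mean miR-143 itself was at 2.65 at E20 and 4.52 at P5. With the other references this held for fewer of the 3: against miR-126-3p the P5 and E20 samples of miR-199a-3p overlapped, and against miR-200c those of both miR-199a strands did.

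Against the endothelial miR-126-3p, miR-214 went from 0.20 ± 0.43 at E20 to -5.26 ± 0.79 at P25, and miR-199a-3p from 0.81 ± 0.59 to -2.20 ± 0.80. Against the epithelial miR-200c they went from -0.40 ± 1.13 to -7.68 ± 2.03 and from 0.21 ± 0.99 to -4.61 ± 0.55. Over all 117 other assays with a CT in every sample, the difference lay lower in every P25 sample than in every E20 sample for 103 with miR-214, 87 with miR-199a-5p and 81 with miR-199a-3p, where 20.1% of the ordered pairs of any 2 assays did so. The assays were chosen with the fall between these ages known, so nothing is read from these counts. Among the epithelial assays it did so for 9 of 9 with miR-214 and for 7 of 9 with each miR-199a strand, the exceptions being miR-203 and miR-205. With the leukocyte miR-142-3p the E20 and P25 samples overlapped for all 3.

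**Figure D5:**
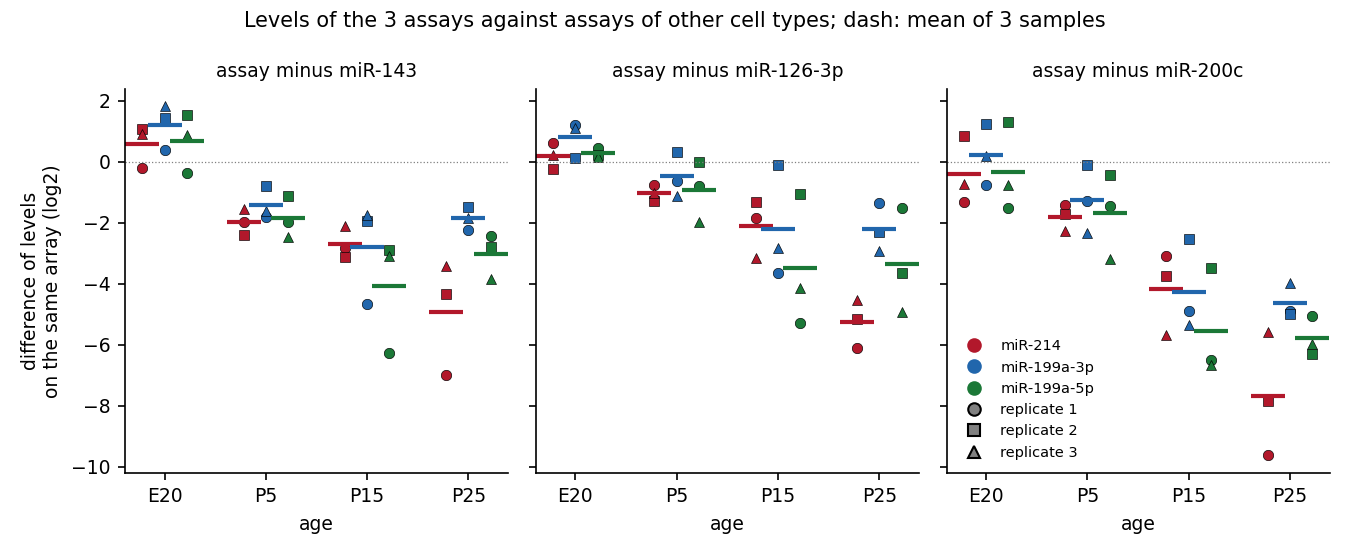
Level of miR-214, miR-199a-3p and miR-199a-5p minus that of miR-143, miR-126-3p or miR-200c on the same array (log2) against age, with a point per sample and a dash for the mean of 3. In each panel the 9 points at P25 lie below the 9 points at E20, and miR-214 has the lowest mean at P25 in all 3 panels.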

How the data were processed

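MicroRNA levels were measured by qRT-PCR in 12 samples of laser-captured parotid acinar cells. Per the labels and the study's methods, the authors made cDNA from 1 ng of total RNA, ran the Exiqon Mouse&Rat panel I (V1.M) and deposited unnormalized CT values, treated here as a score in cycles. Undetermined wells were read as missing. Control wells were left out of the tests.

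A CT under 40 counted as detected. Each CT was subtracted from the array's median CT, 192 of 375 microRNAs, those with 2 or more detected replicates per age, were kept, and 122 missing wells were imputed from the 10 nearest neighbors; the 3 assays described needed none. Folds take a cycle as a factor of 2. Group means were fitted with limma 3.58.1 (R 4.3.3) to all 12 samples, and p-values were adjusted by the Benjamini-Hochberg method over all 192. They measure the spread between samples from separate litters. The script was tested on simulated data. Figures used matplotlib 3.10.9. The number of detected microRNAs stands for depth, and 12 samples limit the precision.

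Members and marker lists were chosen with earlier results of these data known. Named were all member assays, the 5 other assays closest to their mean over 12 samples and the 5 closest within ages, and the list assays. Replicate numbers are shared across ages. Deviations from age means were correlated over the 120 microRNAs detected in all samples. Correlations were above 0.1 in 9 of 9 same-numbered pairs among P5, P15 and P25 and in 1 of 9 pairs with E20. Contrasts with E20 were therefore treated as unpaired. The main fit had no block, so its contrasts among P5, P15 and P25 leave out this shared structure. Counts with the replicate number as a block are given below. Alternatives covered the array reference, filter, imputation, CT limit, block and samples left out.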

Additional observations from a re-analysis of the deposited data

How the results depend on the processing

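The fall of miR-214 from E20 to P25 kept its direction in all settings and was called by limma in 25 of 26, the exception being the small nuclear RNAs as reference, where the change was -3.52. miR-199a-5p was called in 4 of 26 settings and miR-199a-3p in 2 of 26. The group was put forward with this fall known in these same samples, so nothing is read from these counts of calls. Without normalization the changes were -6.25 for miR-214, -3.80 for miR-199a-3p and -4.43 for miR-199a-5p. With 1 sample left out they ran from -5.34 to -3.47, from -2.21 to -1.86 and from -2.99 to -2.30.

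The reference moved the median change of all 192 microRNAs from 0.15 to 0.38 with the median of the microRNAs detected in all samples, -1.58 without normalization and 1.15 with the small nuclear RNAs. Between E20 and P25 limma called 23, but 40 (20 of them higher, against 8 of 23) with the median of the microRNAs detected in all samples as reference, 35 with their mean, 26 (1 higher) without normalization, 0 with the small nuclear RNAs (1 at an unadjusted p-value under 0.05), 10 with missing values at CT 40, 11 with a CT above 35 as not detected, 6 among microRNAs detected in all samples and 35 with E20 and P25 alone in the fit. With 1 sample left out it called 11 to 39, with 14, 11, 39, 11 and 12 without E20 replicate 1, E20 replicate 2, P15 replicate 1, P25 replicate 1 and P25 replicate 2. Across the 4 ages it called 15, but 0 with the small nuclear RNAs (1 unadjusted), 0 without normalization (38 unadjusted), 3 with missing values at CT 40, 7 and 6 with CT limits of 37 and 35 and 7 among microRNAs detected in all samples. With 1 sample left out this count ran from 1 to 21, with 1, 3, 6, 7, 3 and 5 without E20 replicates 1, 2 and 3, P5 replicate 3 and P25 replicates 1 and 2. With the replicate number as a block the counts were 32 and 19, and the exact permutation p-value of the strand difference over the ages was 0.219. Between P5 and P25 the block gave 9 calls against 6. Between E20 and P15, where limma without the block called 0 (40 at an unadjusted p-value under 0.05), the block gave 11, miR-199a-5p among them. Over the 6 pairs of ages and the F test no other call on the 3 assays changed.

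The strand difference over the 4 ages had exact permutation p-values from 0.0473 (without P25 replicate 1) to 0.417 with 1 sample left out, and its change from E20 to P25 ran from 0.23 to 1.13. The within-age correlation of the miR-199a strands ran from 0.81 to 0.98 with 1 sample left out. For miR-199a-3p with miR-214 it ran from 0.45 to 0.84, and was 0.32 with the mean of the microRNAs detected in all samples as reference and 0.84 without normalization. For miR-199a-5p with miR-214 it ran from -0.022, without P15 replicate 1, to 0.82, and was 0.021 and 0.71 under those references. Wells above 35 cycles (miR-214 in P25 replicate 1, miR-199a in P15 replicate 1) bound the precision of those values, since late CTs vary more.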

Other observations

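The spread between samples of an age differed among the 3 assays. At E20 the SD of miR-199a-3p was 0.17, lower than that of all but 5.83% of the 120 assays with a CT in every sample, whose median was 0.63. At P15 the SDs of miR-199a-3p and miR-199a-5p were 2.57 and 2.89, above 93.3% and 96.7% of the assays (median 1.21), while that of miR-214 was 1.02. The miR-199a values rest on P15 replicate 1, without which the SDs were 0.83 and 1.09 (2 samples). At P25 the SD was 1.92 for miR-214, above 87.5% of the assays, and 0.38 and 0.62 for the miR-199a strands. Without P25 replicate 1 the SD of miR-214 was 0.81 (2 samples). With 3 samples per age these are descriptions.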
